A study of Caenorhabditis elegans with 3 samples.

Results

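The SL2 RNA genes sls-2.1, sls-2.2 and sls-2.4 are 3 of the 31 annotated Caenorhabditis elegans genes whose symbol begins with sls-, and 3 of 46890 nuclear genes. They were chosen by the measured signal of the regions at their locus in a ChIP-seq experiment on Y5F2A.4, a protein annotated with a zinc finger domain, where they led the spliced leader genes. Their signals, ranks, widths and positions are therefore given as a description, with no test. All 3 had a summit within 500 bp of the gene body in the authors' reproducible list, against 4 of the 28 other sls- genes (14.3%). Of these 4, sls-2.3 was counted only through the summit of its neighbour sls-2.2. The 28 include 12 genes for another leader RNA, SL1, none of which was counted. The same rule held for 11 of 99 snRNA genes outside the sls- family (11.1%) and for 2.7% of all nuclear genes. The share among the chosen genes follows from the choice, and nothing is read from it.

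Whole worms of strain OP682 at the L4 larval stage, 48 hours old and of both sexes, were used. The strain carried the unc-119(tm4063) mutation and 1 integrated transgene, wgIs682, holding an unc-119(+) copy and a Y5F2A.4 gene fused to TY1, EGFP and 3xFLAG tags, so tagged protein from this transgene in 1 line stands for Y5F2A.4. The tagged protein was recovered with an antibody to GFP. There was 1 group, with 3 libraries from 2 biological replicates and no second condition. The deposited files are a reproducible list of 635 regions, here called thresholded, and 3 lists of candidate regions, from replicate 1 (30000), replicate 2 (23415) and both combined (28443). Each region carries a signal value, a score from the authors' peak caller with no unit, which can be compared only within a list. Rank 1 is the highest signal of a list. Ranks count mitochondrial regions too, 15 in the thresholded list and 16 or 17 in each candidate list. Combined ranks over nuclear regions only are given at the end. Read depth is unknown because the lists hold no read counts.

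In C. elegans many genes lie in operons, whose long transcripts are cut into separate mRNAs. The SL2 RNA, a small nuclear RNA bound by Sm proteins, donates its 5' end, the spliced leader, to mRNAs of downstream operon genes by trans-splicing. The SL1 RNA does the same for most other trans-spliced mRNAs. Worm genes for spliced leader and spliceosomal RNAs are transcribed from short promoters that hold a proximal sequence element, recognised by the SNAPc complex. The sls-2 family holds both genes for the SL2 leader itself and genes for variant leaders.

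The 3 chosen genes carried the same leader. It is shown because sls-2.3 also holds it, while the other sls-2 genes begin with other leaders. The nearest combined candidate of sls-2.3 (70.5) was below those of 5 genes with other leaders. That region covered no base of sls-2.3 and is also the second candidate of sls-2.2. Its summit lay 212 bp from sls-2.2 and 245 bp from sls-2.3. Whether the leader goes with the signal was not tested. Each sequence is the sense strand of the RefSeq genome WBcel235, which has the coordinates of the files' build ce11. Capitals mark the leader, taken as the bases up to the first AAG that is followed by GT. The first 3 lines are whole gene bodies, of sls-2.1 (chrII:5844865-5844974, plus strand), sls-2.2 (chrII:5543598-5543707, plus strand) and its neighbour sls-2.3 (chrII:5544164-5544273, minus strand). The last 3 lines are the first 30 bases of sls-2.8 (from chrIII:12250465), sls-2.16 (from chrIII:7141391) and sls-2.15 (from chrIII:11091010), all on the plus strand, the other sls- genes with a thresholded summit of their own.
sls-2.1: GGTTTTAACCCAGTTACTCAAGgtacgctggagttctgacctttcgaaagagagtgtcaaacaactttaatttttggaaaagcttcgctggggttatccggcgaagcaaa
sls-2.2: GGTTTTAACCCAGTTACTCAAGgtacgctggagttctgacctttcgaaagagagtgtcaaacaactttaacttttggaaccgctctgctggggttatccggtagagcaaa
sls-2.3: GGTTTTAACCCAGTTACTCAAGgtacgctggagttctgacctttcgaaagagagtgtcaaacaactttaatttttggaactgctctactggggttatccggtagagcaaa
sls-2.8: GGTTTTAACCCAGTTTAACCAAGgttagct
sls-2.16: GGTTTTAACCCAAGTTAACCAAGgttagca
sls-2.15: GGTTTATACCCAGTTAACCAAGgttagcat

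This leader of 22 bases began 4 of the 19 sls-2 genes, sls-2.1 to sls-2.4, and its letters occurred 4 times in the nuclear genome on either strand. The other 15 genes shared only the first 5 to 17 bases with it. From the 5' end, sls-2.1, sls-2.2 and sls-2.4 were identical over 51 bases. Over the whole gene body of 110 bp, sls-2.1 matched sls-2.2 at 92.7% of bases and sls-2.4 at 90.9%, and sls-2.2 matched sls-2.4 at 96.4%. The longest identical run between 2 of these loci, flanks of 1000 bp included, was 53 bp for each pair with sls-2.4, 87 bp for sls-2.1 and sls-2.2, and 97 bp for sls-2.1 and sls-2.3. Reads inside such runs cannot be assigned to 1 gene by sequence alone, and how the authors treated them is not given in the sources used here.

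Differences between sls-2.1 and sls-2.2 lay in the 3' part of the gene. With positions counted from 1 at the first base of sls-2.1, the changes to sls-2.2 were T71C, A80C, A81C, T85C, C86T, C102T, G103A and A104G. The letters AATTTTTGG, the form of the binding site for Sm proteins in these RNAs, were found on the sense strand at positions 69 to 77 of sls-2.1, sls-2.3 and sls-2.4. They were present in 14 of the 19 sls-2 genes. The change T71C falls in these letters, so sls-2.2 did not hold the exact word.

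Upstream of the genes, the bases that sls-2.1, sls-2.2 and sls-2.4 share are shown because promoters of this class are short. The lines give the 100 bases before each gene. Capitals mark stretches of at least 8 bases that all 3 chosen genes hold at the same place, within 5 bp. The same stretches are marked in sls-2.3 and in the 3 genes with other leaders where they occur.
sls-2.1: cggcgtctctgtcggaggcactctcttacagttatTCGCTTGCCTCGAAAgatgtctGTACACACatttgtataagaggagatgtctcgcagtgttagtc
sls-2.2: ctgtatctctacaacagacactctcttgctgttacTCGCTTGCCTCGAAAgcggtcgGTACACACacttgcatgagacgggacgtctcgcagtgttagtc
sls-2.3: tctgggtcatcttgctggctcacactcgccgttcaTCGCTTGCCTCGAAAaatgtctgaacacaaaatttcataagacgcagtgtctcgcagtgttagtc
sls-2.8: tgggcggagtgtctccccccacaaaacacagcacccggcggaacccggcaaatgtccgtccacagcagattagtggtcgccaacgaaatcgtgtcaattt
sls-2.16: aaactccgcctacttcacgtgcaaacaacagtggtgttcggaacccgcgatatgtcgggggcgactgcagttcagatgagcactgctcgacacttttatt
sls-2.15: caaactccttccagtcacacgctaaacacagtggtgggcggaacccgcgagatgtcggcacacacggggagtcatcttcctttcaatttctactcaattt

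The 15-base stretch TCGCTTGCCTCGAAA began 65 bp before the 5' end in sls-2.1, sls-2.2, sls-2.3 and sls-2.4, which is position -65. Among 46880 nuclear genes these 4 were the only ones with it on the sense strand within 100 bp upstream. With both strands searched over 300 bases, 250 before and 50 after each gene's start, it was likewise in 4 genes (0.00853% of all such windows). The second stretch, GTACACAC, began at -43 in the 3 chosen genes. It was absent from sls-2.3 and was held on either strand by 0.563% of all such windows of 300 bases. The stretches do not overlap. None of the 99 other snRNA genes and none of the 12 SL1 genes held either of them within 100 bp upstream on the sense strand.

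Genes with other leaders had other letters at that place. The word AACCCGC, chosen after the sequences were seen, began at -59 in 10 of the 15 genes with another leader, sls-2.15 and sls-2.16 among them. That position lies inside the place taken by the 15-base stretch in sls-2.1 to sls-2.4, of which 0 of 4 held the word. It was on the sense strand within 100 bp upstream of 0.273% of all genes, and on either strand in 1.14% of the windows of 300 bases described above. Between pairs of the 3 chosen genes, the 100 bases upstream were identical at 57 to 79% of positions, less than the gene bodies. The 100 bases downstream were much less alike, identical at 25 to 30% of positions.

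Among the spliced leader genes sls-2.4 had the highest signal. Its thresholded region on chrI:4172111-4172500 had a signal of 294 and rank 40 of 635. It was rank 40 in replicate 1 (signal 139) and rank 45 in replicate 2 (signal 163), and rank 40 in the combined list. Both replicates thus placed it within the first 45 regions. The locus had a single region in each of the 4 lists.

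The sls-2.1 locus had a thresholded region on chrII:5844666-5845041 with a signal of 234 and rank 70. In replicate 2 the nearest summit had a signal of 128 and rank 76. In replicate 1 the nearest summit, 35 bp past the gene, had a signal of 67.2 and rank 271, and a stronger one, 56 bp before the gene, had a signal of 112 and rank 70. Each candidate list thus held 2 regions here, with 1 summit on each side of the gene. The 2 regions of a list overlapped, and in both replicates each covered all 110 bp of the gene. The region with the downstream summit was weaker in all 3 candidate lists. It had ranks 271 in replicate 1, 4107 in replicate 2 and 27240 in the combined list.

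At sls-2.2 the thresholded region on chrII:5543704-5543856 had a signal of 223 and rank 85. The region was rank 91 in replicate 1 (signal 103) and rank 77 in replicate 2 (signal 128). A second candidate had its summit farther downstream, between sls-2.2 and sls-2.3. It was rank 406 in replicate 1 (signal 58.7), 21512 in replicate 2 (signal 21.8) and 1887 in the combined list (signal 70.5). The replicates therefore gave the first region similar ranks and the second very different ranks.

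**Figure D1:**
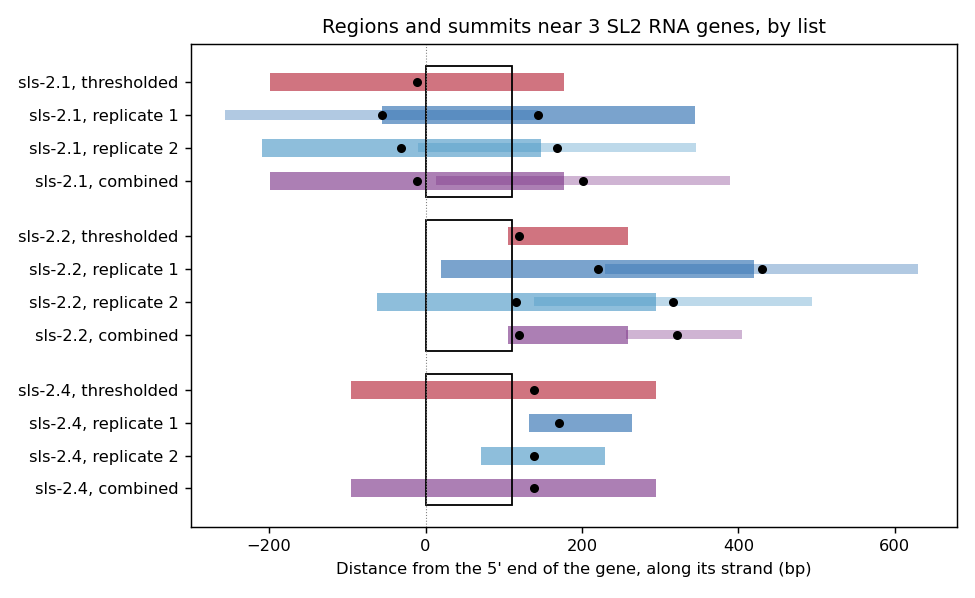
Regions (bars) and summits (black points) within 500 bp of sls-2.1, sls-2.2 and sls-2.4 in the 4 lists, by distance in bp from the 5' end along the gene's strand, with the gene body as a black outline and thin pale bars for regions other than the nearest. The thresholded summit lies 11 bp before the start of sls-2.1, and 11 bp and 30 bp past the last base of sls-2.2 and sls-2.4.

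The summits did not lie at the same place in the 3 genes. In the thresholded list the sls-2.1 summit was at -11, just before the first base. The sls-2.2 summit was at 120 and the sls-2.4 summit at 139, which is 11 bp and 30 bp past the last base of these 110 bp genes. The sls-2.4 summit was at 170 in replicate 1 and at 138 in replicate 2, downstream in both. The sls-2.2 summit was at 220 and 116, also downstream in both, 104 bp apart. For sls-2.1 the replicate 2 summit was at -31, and the replicate 1 summits were at -56 and 144. The stronger summit of sls-2.1 was thus upstream in both replicates, 25 bp apart. The replicates thus placed the summit of a gene 25 to 104 bp apart (the stronger one at sls-2.1), on chromatin sonicated to 200 to 800 bp, so offsets of this size within a gene cannot be read as separate positions.

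The width of the regions differed as well. The sls-2.1 region had 376 bp, as did 553 of the 635 thresholded regions, and covered all 110 bp of the gene. The sls-2.4 region had 390 bp and also covered the whole gene. The sls-2.2 region had 153 bp and reached only the last 4 bases of the gene. In replicate 1 and replicate 2 the sls-2.4 regions were narrower, at 132 and 159 bp, where 29958 and 23368 regions of these lists had the common widths of 400 and 356 bp.

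The bases around 2 of these summits, 50 to each side, are shown with the summit base as a capital. The sls-2.1 window (chrII:5844804-5844904) takes in part of the shared upstream stretch and the leader. The sls-2.2 window (chrII:5543668-5543768) takes in the 3' end of the gene and flanking bases.
sls-2.1: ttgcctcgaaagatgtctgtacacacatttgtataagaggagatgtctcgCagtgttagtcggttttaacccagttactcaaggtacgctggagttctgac
sls-2.2: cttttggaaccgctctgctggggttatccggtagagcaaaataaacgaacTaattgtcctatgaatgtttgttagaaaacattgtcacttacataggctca
In such windows of 101 bp the share of G and C was 44.6% for sls-2.1, 39.6% for sls-2.2 and 34.7% for sls-2.4. All 3 were below the median of the 620 nuclear thresholded summits, 48.5% (range 23.8 to 72.3%).

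No protein-coding gene covered the 3 summits. The sls-2.1 summit was 234 bp from nep-25, a neprilysin family gene, and 687 bp from the nearest protein-coding 5' end, that of ZK1248.17. At sls-2.2 the nearest protein-coding gene was ins-13, an insulin-like gene, 794 bp away. The sls-2.4 summit was 93 bp from R12E2.11 and 756 bp from the nearest protein-coding 5' end, that of egg-5, whose product acts in the change from oocyte to embryo. The ncRNA genes C17C3.23 and R12E2.18 are annotated on the opposite strand over sls-2.2 and sls-2.4. Regions carry no strand, so signal at these overlapping genes cannot be told apart.

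The sls-2.3 gene had the same leader and the same 15-base stretch upstream, but no thresholded summit of its own. The nearest was that of sls-2.2, 446 bp beyond the 3' end of sls-2.3, since the genes face each other. Its nearest combined candidate, at 354 from its 5' end, was the region between the genes with a signal of 70.5. No candidate summit in any list lay upstream of sls-2.3 or inside it within the 500 bp searched. Of the 4 genes with the SL2 leader, 3 therefore had a thresholded summit of their own, and the fourth was listed through its neighbour. Those 3 are the chosen genes, so this count follows from the choice.

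**Figure D2:**
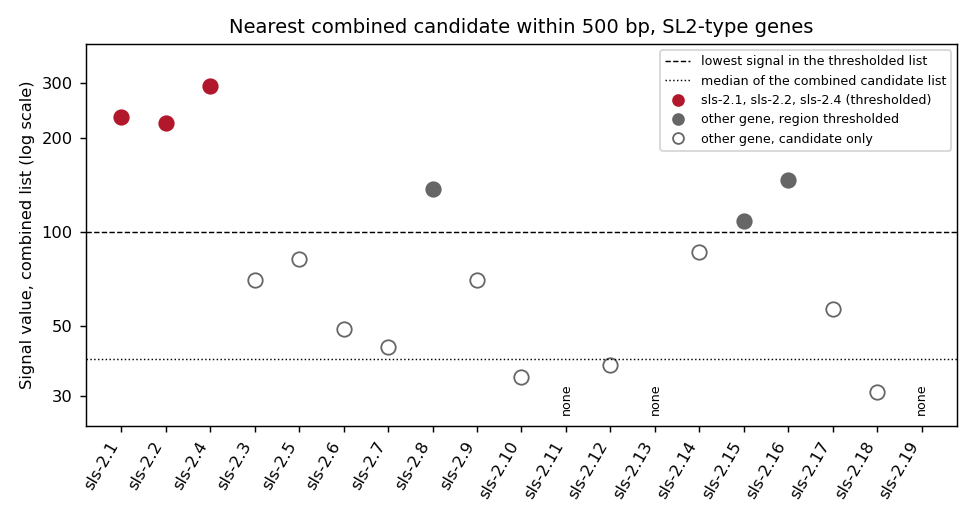
Signal value (log scale) of the nearest combined candidate within 500 bp of each sls-2 gene, with a dashed line at the lowest thresholded signal (100.5) and a dotted line at the median of all combined candidates (39.5). The chosen genes (red) lie between 223 and 294, above the next gene, sls-2.16, at 147, and filled grey symbols are other genes with a thresholded region, open symbols are candidates that were not thresholded, with "none" where the combined list had no summit.

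Next below the chosen genes in signal came genes with other leaders. In the combined list the chosen genes had signals of 294, 234 and 223, and the next, sls-2.16, had 147. It ranked 419 in replicate 1 (signal 58.1), 286 in replicate 2 (signal 80.9) and 242 among thresholded regions. The sls-2.8 region followed with a signal of 138, at ranks 532 in replicate 1, 307 in replicate 2 and 287 in the thresholded list. The sls-2.15 region had a signal of 109, at ranks 483, 979 and 526 in the same lists, where the thresholded list ends at 100.5. Below the end of the list were sls-2.14 (86.8) and sls-2.5 (82.0), and then sls-2.3 (70.5). In replicate 1 the nearest candidate of sls-2.14 ranked 19838, but a stronger one, 152 bp past the gene, ranked 203 (signal 72.5). That was ahead of the nearest replicate 1 region of sls-2.1, at rank 271.

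Over the 16 other sls-2 genes, 13 had a combined candidate within 500 bp, with signals of 30.8 to 147 and a median of 70.4. The median of the 3 chosen genes was 234, and that of all 28443 combined candidates was 39.5. Both replicates had a candidate at 12 of the 16. The share of all nuclear genes with a candidate within 500 bp was not counted, so nothing is read from these counts. The sls-2.11, sls-2.13 and sls-2.19 genes had none in the combined list, and sls-2.13 and sls-2.19 none in replicate 2 either. Of the 15 genes with another leader, sls-2.8, sls-2.15 and sls-2.16 had a thresholded summit, as did 2.7% of all nuclear genes. The genes with the SL2 leader include the chosen ones, so the 2 leader groups are not compared.

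The 12 SL1 genes had no summit within 500 bp in any of the 4 lists. They lie in a tandem cluster on V, and over the 14954 bp that it spans with its flanks, each candidate list held 1 summit. The depth is unknown and the handling of reads that map to several copies is not given, and the part of either in this count was not tested. For the candidate lists, the share of all genes with a summit within 500 bp was not counted either.

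**Figure D3:**
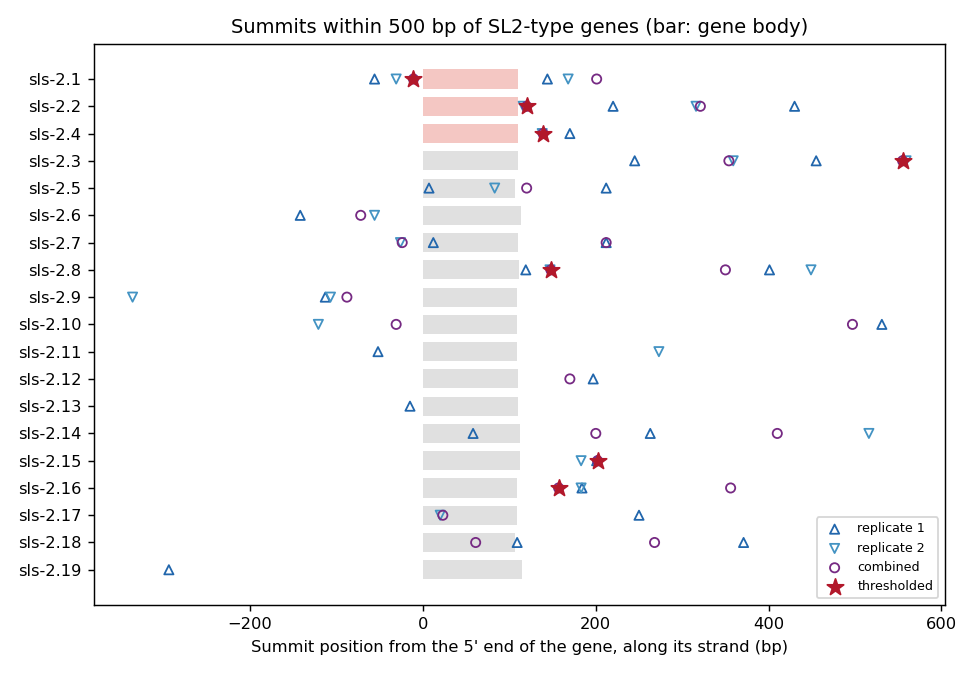
Summit positions in bp from the 5' end of each sls-2 gene, along its strand, for all summits within 500 bp in the candidate lists (open symbols) and the thresholded list (stars), with gene bodies as bars. The stars of sls-2.2, sls-2.4, sls-2.8, sls-2.15 and sls-2.16 lie past the 3' end, at 120 to 202 bp, the star of sls-2.1 lies at -11, and the star in the sls-2.3 row is the sls-2.2 summit.

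Of the sls-2 genes with a thresholded summit of their own, sls-2.1 had it upstream and the others past the 3' end. Beside sls-2.2 and sls-2.4, they were at 148 for sls-2.8, 157 for sls-2.16 and 202 for sls-2.15. Their gene bodies are 109 to 112 bp long. Positions in the replicates were 119 and 147 for sls-2.8, 184 and 183 for sls-2.16, and 201 and 183 for sls-2.15, all downstream in both. The distances past the last base were of the size by which the replicates differed at the chosen genes, so the side of the gene is given only as listed. Over the combined list, which includes weaker candidates, the nearest summit was downstream for 2 of the 3 chosen genes and upstream for 1. Among the 13 other sls-2 genes with a candidate it was downstream for 7, inside for 2 and upstream for 4. The 11 other genes of Ensembl's snRNA class with a thresholded summit had 10 nearest regions between them, because mir-1831, a 22 bp gene with a miRNA name inside sup-39, is in that class and shares its region. It was named after its values were seen. Of the 11 genes, mir-1831 included, 5 had it downstream of the gene, 4 inside it and 2 upstream, with a median position of 94 and a range of -21 to 228. The sls-2.15 summit lay in an exon of W09D6.5 and the sls-2.16 summit in an exon of glr-2, a glutamate receptor gene, while that of sls-2.8 lay 47 bp from the start of Y75B8A.23.

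By signal in the replicates, the snRNA genes outside the family most like the chosen genes were W05B2.8, F54D8.7, R07E5.16 and C52E4.8. Likeness was the sum of the absolute log2 differences from the chosen genes' medians, 103 in replicate 1 and 128 in replicate 2, so it rests on 2 values per gene. W05B2.8 was nearest (0.84), with signals of 141 and 97.9 and ranks 37 and 158. It had 2 thresholded regions, a nearer one of signal 128 and a stronger one of 228 with its summit at -53. F54D8.7 (0.97) had a thresholded signal of 215 with the summit at -21, at ranks 46 and 254 in the replicates. R07E5.16 and C52E4.8 were at 1.26 and 1.27, with thresholded signals of 154 and 134. By the nearest candidate of each gene, the chosen genes ranked 45 to 77 in replicate 2. They were ahead of all 11 such genes, of which W05B2.8 came first at 158. A farther candidate of W05B2.8, which could be stronger, was not ranked. In replicate 1 the order differed: the chosen genes ranked 40, 91 and 271, while W05B2.8 at 37 was ahead of all 3 and F54D8.7 at 46 was ahead of sls-2.1 and sls-2.2.

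**Figure D4:**
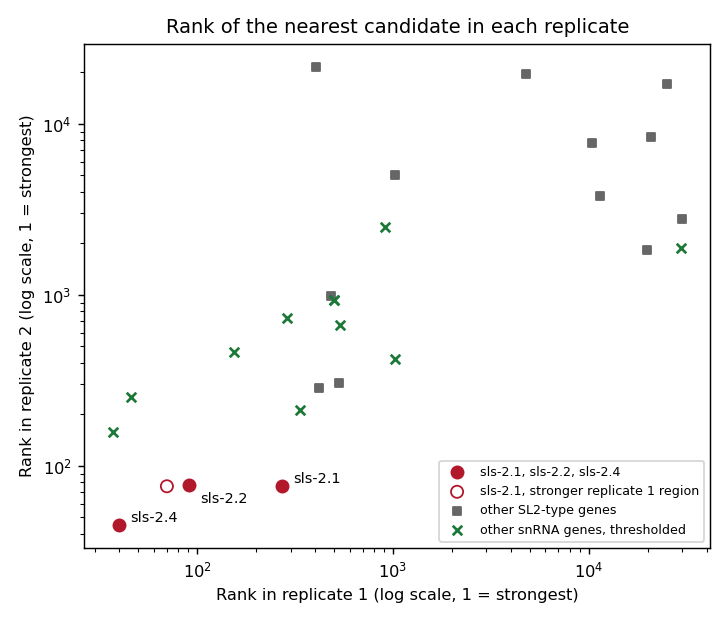
Rank of the nearest candidate in replicate 1 and replicate 2 (both log scale, 1 is the strongest) for the chosen genes (red), the other sls-2 genes with a candidate in both (grey squares) and the other snRNA genes with a thresholded summit (green crosses). The chosen genes rank 45 to 77 in replicate 2 and 40 to 271 in replicate 1, and the open circle at rank 70 is the stronger replicate 1 region of sls-2.1. Stronger, farther regions of other genes are not drawn, such as those of sls-2.14 (rank 203 in replicate 1, nearest at 19838) and sls-2.5 (rank 472, nearest at 11392).

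Promoters were taken as 1000 bp before the 5' end to 200 bp past it. Genes for proteins that make or use these RNAs were checked for a thresholded summit there. Of 12 genes for spliced leader and Sm proteins 1 had one (8.33%), against 1.46% of all protein-coding genes. It was snr-4, which encodes the Sm protein SmD2. Its region (signal 134, rank 310, summit at -561) was the same region as that of the snRNA gene C52E4.8 named above. It covered that gene whole and is counted for both genes. None of the 7 genes for SNAPc subunits had one. Of 19 genes for cleavage, polyadenylation and Integrator factors 2 did (10.5%): ints-4, an Integrator subunit gene (signal 174, summit at -1), and suf-1, which encodes the CstF-77 subunit of cleavage stimulation factor (signal 111, summit at -113). With 7 to 19 genes a list, these counts are given without a test.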

How the data were processed

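From what the labels and the deposited notes record, the authors made candidate regions (peaks with background) from replicate 1, replicate 2 and both together, each with a control, in ce11, and derived the thresholded list from these by irreproducible discovery rate. Both technical libraries of replicate 1 share 1 alignment and count as 1 replicate. The deposited signal value is a score without a stated unit. Any name or setting of the aligner, peak caller and rate threshold is not given in the sources used here.

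Each summit is the region start plus the deposited offset, printed counting from 1. Positions count from 0 at the gene's first base along its strand, and a gene's own summit is the nearest within 500 bp. Genes and the snRNA class came from Ensembl release 115, with RefSeq symbols where Ensembl repeats or lacks one, and sequences from RefSeq WBcel235. No nuclear region ran past a chromosome end. Python 3.11.15, pandas 2.3.3, numpy 2.4.6 and matplotlib 3.10.9 were used, and the assignment and word search were tested on simulated data.

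The genes and lists were chosen with earlier results of these data known. Named were the chosen genes, the 6 other sls- genes highest in combined signal, the 4 snRNA genes most like them in the replicates, neighbouring genes, and listed pathway genes with a summit. With 1 group and 2 biological replicates, no test across samples was run.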

Additional observations from a re-analysis of the deposited data

How the results depend on the processing

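All 3 chosen genes had a thresholded summit under each other setting run. The settings were distances of 200 and 1000 bp, overlap of region and gene body, the 317 strongest listed regions, and each replicate left out. With a replicate left out, the 635 strongest candidates of the other replicate replaced the list. The outcome for the chosen genes follows from their choice and from the positions and ranks given above, and nothing is read from it. The number of other sls- genes was 4 in the main count, 7 within 1000 bp, 3 within 200 bp, by overlap and among the 317 strongest, and 3 to 6 with a replicate left out. Within 200 bp and by overlap, sls-2.3 was no longer counted. The sls-2.1 offset was -11 in the combined list and -31 in replicate 2 alone, but 144 in replicate 1 alone, where the nearest summit is the weaker of 2. With the strongest summit in place of the nearest, which was added once the data had been seen, the rank of sls-2.1 in replicate 1 was 70 instead of 271. This setting was run for the chosen genes only. Replicate 1 alone also moved the offsets of sls-2.2 to 220 and of sls-2.4 to 170. Over nuclear regions only, combined ranks were 28 for sls-2.4, 56 for sls-2.1 and 71 for sls-2.2. Shared upstream words numbered 9 at 8 bases, 11 at 7 and 6 at 10. No paired analysis was possible because there is 1 group. Without read counts, depth limits which weak regions could be listed.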
